A study of Mus musculus with 2 samples.

Results

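The genes followed here set whether a T cell lives or dies, and they are described in mammary CD8 T cells of parous and virgin mice. They were 10 of the 32285 genes in the deposited matrices, found by their gene symbols, and all 10 were found in both libraries. The members were the anti-apoptotic genes Bcl2, Mcl1, Bcl2l1, Bcl2a1b and Bcl2a1d, the pro-apoptotic genes Bcl2l11 and Bbc3, the survival kinase gene Pim1, and the death receptor gene Fas with its ligand gene Fasl. The parous group was live CD8 T cells, sorted as CD45+ TCRB+ CD8a+, from the 4th mammary fat pad of untreated multiparous C57BL/6 mice. The virgin group was sorted with the same gate from the same fat pad of virgin C57BL/6 mice. Each group was 1 library, read from the 5 prime end of transcripts, from a pool of at least 5 mice, and the ages of the mice and the time since the last pregnancy are not given in the sources used here. With 1 library per group no difference has a replicate check, no test was made, and differences between mice, cell preparations and parity cannot be told apart.

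Proteins of the Bcl2 family decide whether the outer mitochondrial membrane is opened, the step that commits a cell to the intrinsic form of apoptosis. Bcl2, Mcl1, Bcl-xL (the product of Bcl2l1) and A1 (the product of the Bcl2a1 genes) hold the membrane closed, and BH3-only proteins such as Bim (Bcl2l11) and Puma (Bbc3) bind and neutralise them. In T cells, cytokines of the IL-7 and IL-15 type sustain Bcl2 and Mcl1, and Bim drives much of the loss of effector cells after a response. Fas ligand on an activated T cell triggers the extrinsic form of apoptosis in cells that carry Fas.

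The cell filter kept 3019 of 4927 parous barcodes and 2511 of 2526 virgin barcodes. The kept cells had medians of 4108 UMIs (unique molecular identifiers, a count of the captured RNA molecules) in the parous library and 7001 in the virgin library. Clusters of CD8 T cells held 2993 parous and 2502 virgin cells, with 13288060 and 19944371 UMIs, and 14 kept barcodes occurred in both libraries. The 10 genes were left out of the clustering, so they did not shape the 12 clusters in which they are described. Of these clusters 9 were named from marker genes and 3 stayed unnamed. An unnamed cluster low in RNA and led by Fabp4 and Lars2 held 151 parous and 38 virgin cells. Of its cells 70.4% had a Cd3e UMI and 52.9% a Cd8a UMI. These shares were 65.7% and 51.4% in a cluster of other cells that was left out. At a clustering resolution of 0.5, 95.8% of the low RNA cluster fell in a cluster named myeloid, so its identity as CD8 T cells is uncertain. A cluster with Gzmk and Pdcd1 among its leading genes (371 parous and 17 virgin cells) and an unnamed cluster led by Fcer1g, Tyrobp and Gzmc (313 and 1) were almost wholly parous. The naive or central memory-like cluster, whose markers include Ccr7 and Lef1, made up 16.1% of parous CD8 T cells, against 39.4% of virgin ones. In the Fcer1g cluster 98.4% of cells had a Cd3e UMI and 82.8% a Cd8a UMI. A Cd8b1 UMI was seen in 22.0%, the lowest share of the 12 clusters. There, 10 tissue-resident memory-like markers, Itgae and Cxcr6 among them, were at least 2-fold higher than in other cells. The 6 NK cell markers, which include the leading genes Fcer1g and Tyrobp, summed to 5007 CPM in this cluster. Over all CD8 T cells those 6 markers, 4 of them higher and 1 lower in the parous library by 1.5-fold and none at 0, summed to 679 CPM for parous and 111 CPM for virgin cells.

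Bcl2, Bcl2l11 and Fasl had the highest ratios of level, parous over virgin, in the pooled comparison of all CD8 T cells. Each was also seen in a larger share of parous cells at matched depth. Mcl1, Bcl2l1, Pim1 and Bcl2a1b were higher in the parous library by level and by share too, with lower ratios of level (log2 0.28, 0.28, 0.25 and 0.03). Levels are given in CPM, the UMIs of a gene per 1000000 UMIs of all CD8 T cells of a library, and shares of cells after every cell was thinned at random to 1400 UMIs. The thinning left 2868 parous and 2488 virgin cells and left out 125 and 14 shallower ones. By a threshold of 1.5-fold, 2 of the 10 genes (Bcl2 and Bcl2l11) were higher in the parous library, against 6.54% of the 11914 genes that had 10 or more UMIs in both libraries. None of the 10 was lower by that threshold as sampled, against 12.3% of all genes tested, but Fas passed it when cells were thinned to 1400 UMIs (log2 -0.76). The median log2 ratio (parous over virgin) was 0.26 for the 10 genes and -0.13 for all genes tested. The members were chosen with earlier results of these data known, so these counts describe them and do not set them apart.

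**Figure D1:**
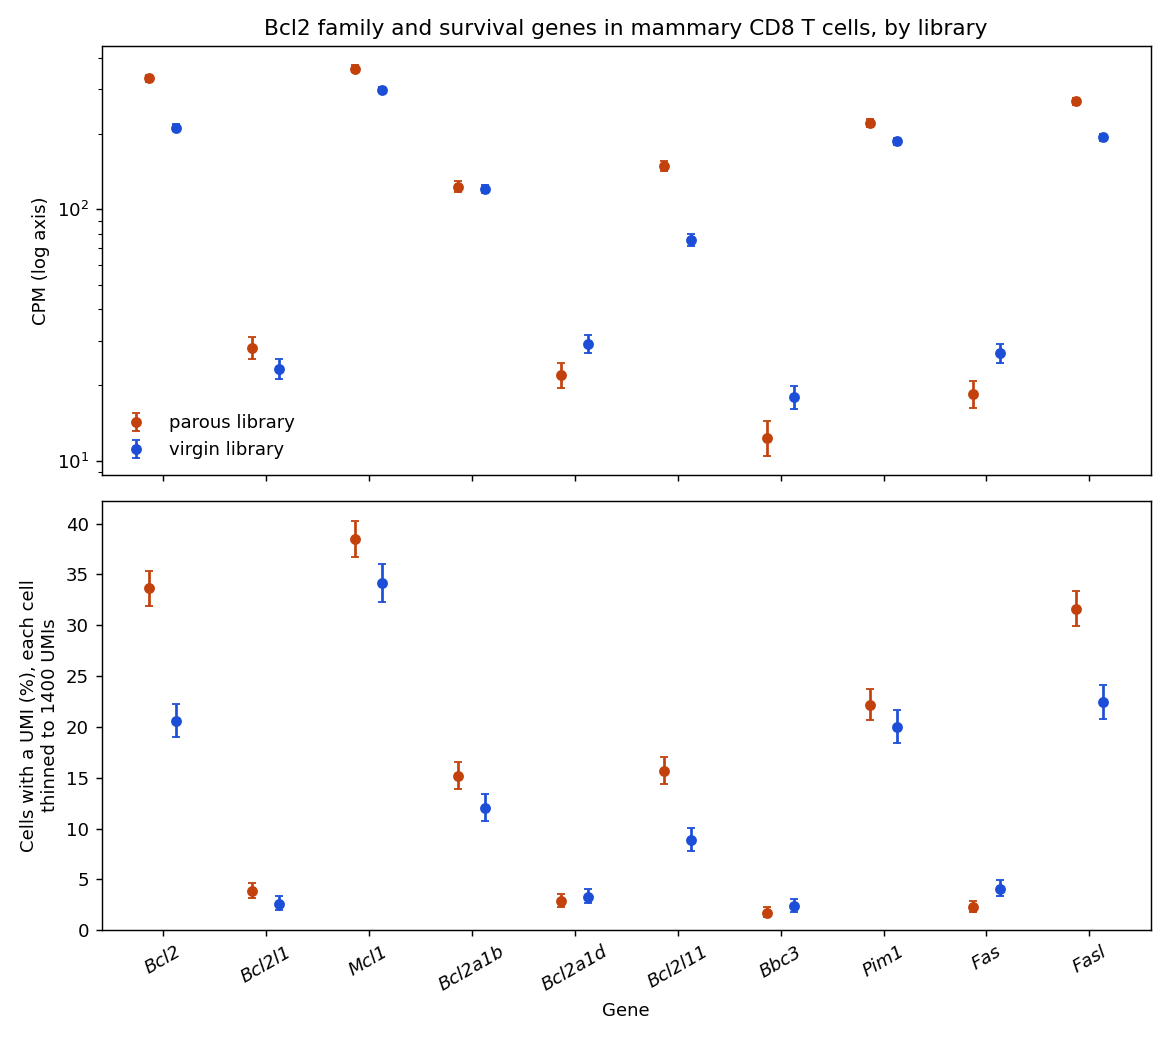
Level (top, CPM, log axis) and share of cells with a UMI at 1400 UMIs per cell (bottom, percent) of the 10 genes in the parous and virgin libraries, all CD8 T cells; vertical bars are exact 95% intervals for counting error. Bcl2 (332 against 211 CPM), Bcl2l11 (149 against 75.5 CPM) and Fasl (269 against 193 CPM) lie higher in the parous library in both panels, and Fas (18.4 against 26.8 CPM) and Bbc3 (12.3 against 17.9 CPM) lower.

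Bcl2, the founding guardian of the family (ENSMUSG00000057329, GRCm38 chromosome 1, 106538178 to 106714274, minus strand), had 4411 UMIs in parous and 4213 UMIs in virgin CD8 T cells. This was 332 CPM (95% interval 322 to 342) in the parous library and 211 CPM (205 to 218) in the virgin library. The level was 1.57-fold higher in the parous library (log2 0.65, interval 0.59 to 0.71), and the intervals of the libraries did not overlap. At 1400 UMIs, a Bcl2 UMI was seen in 33.6% (interval 31.9% to 35.4%) of parous cells, against 20.6% (19.0% to 22.3%) of virgin cells. Poisson intervals for levels, Clopper-Pearson intervals for shares and binomial intervals for ratios cover counting error only, here and in what follows.

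Bcl2 also differed between T cell states, which the libraries held in different shares. It was highest in 4 clusters. It reached 514 CPM in the parous cells of the Fcer1g cluster and 472 CPM in those of the Gzmk or exhausted-like cluster. In the Ly49 Helios-like cluster, whose cells carry Ly49 receptors and the transcription factor Helios, it was 447 CPM in parous and 501 CPM in virgin cells. In the resident-like cluster marked by Car2 and Itgae it was 417 CPM in parous and 579 CPM in virgin cells. The naive or central memory-like cluster had less, 228 CPM in parous and 192 CPM in virgin cells, and cycling-like cells had least, 81.7 and 57.5 CPM. The Car2, Gzmk and Fcer1g clusters together held 33.9% of parous and 2.68% of virgin cells, and 44.2% of the parous and 6.15% of the virgin Bcl2 UMIs.

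Within single states the direction of Bcl2 was mixed. Of 10 clusters with at least 25 cells in each library, the log2 ratio was positive in 7 and negative in 3. In the resident-like cluster marked by P2rx7 and Ccr8, Bcl2 was 215 CPM in parous and 109 CPM in virgin cells (log2 0.98, interval 0.54 to 1.44). In the resident-like cluster marked by Car2 and Itgae it went the other way (log2 -0.47, interval -0.70 to -0.24). It was at least 1.5-fold higher in 2 of the 10 clusters, the P2rx7 cluster and the interferon-responding-like cluster, where 8.86% and 13.5% of all genes tested were. When both libraries were given the same mix of the 10 clusters, Bcl2 was at 256 CPM in parous and 254 CPM in virgin cells (log2 0.01). Those 10 clusters held 77.1% of parous and 99.3% of virgin cells.

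Bcl2l11, which encodes the killer BH3-only protein Bim (ENSMUSG00000027381, GRCm38 chromosome 2, 128126038 to 128162547, plus strand), had the largest ratio of the 10 genes. It had 1975 UMIs and 149 CPM (interval 142 to 155) in the parous library, against 1506 UMIs and 75.5 CPM (71.7 to 79.4) in the virgin library. The level was 1.97-fold higher in the parous library (log2 0.98, interval 0.88 to 1.07). At 1400 UMIs, 15.7% of parous cells (14.4% to 17.1%) and 8.84% of virgin cells (7.76% to 10.0%) had a UMI. The pro-apoptotic gene and its main antagonist Bcl2 were therefore both higher in the parous library, and both by intervals that did not overlap.

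The states highest in Bcl2l11 were the Fcer1g cluster and the Ly49 Helios-like cluster. The gene was at 336 CPM in the parous cells of the Fcer1g cluster, which held 22.2% of all parous Bcl2l11 UMIs in 10.5% of the parous cells. In the Ly49 Helios-like cluster it was at 207 CPM in parous and 189.9 CPM in virgin cells. Without the Fcer1g cluster the pooled log2 ratio was 0.77; the 6 NK cell markers, which move with this cluster, were at 5007 CPM in its parous cells, between 17.4 and 727 CPM in the parous cells of every other cluster, and their part in the remaining difference was not tested.

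Unlike Bcl2, Bcl2l11 had a positive log2 ratio of CPM in all 10 clusters compared, between 0.07 and 1.195, though only 3 of the intervals lay above 0. Shares of cells with a UMI at 1400 UMIs were not higher in parous cells of every cluster. They were lower in the Ly49 Helios-like (23.9% parous against 25.4% virgin), cycling-like (7.69% against 9.33%) and interferon-responding-like (7.14% against 7.58%) clusters. In each of these the intervals overlapped, and in the other clusters compared the parous share was higher. The 10 clusters include the low RNA cluster led by Fabp4 (log2 0.84, interval -0.18 to 2.04), whose identity is uncertain. In the naive or central memory-like cluster it was 103 CPM in parous and 60.1 CPM in virgin cells (log2 0.78, interval 0.54 to 1.01). In the cluster led by Gzmm and Dipk2a it was 125 CPM in parous and 96.4 CPM in virgin cells (log2 0.38, interval 0.08 to 0.67). In the small interferon-responding-like cluster (42 parous and 66 virgin cells) it was 114 and 50.04 CPM (log2 1.195, interval 0.29 to 2.06). The 6 NK cell markers summed to 206 CPM in these parous and 74.1 CPM in these virgin cells, and their part in the Bcl2l11 value was not tested. With the same mix of clusters in both libraries it was at 109.9 CPM in parous and 80.5 CPM in virgin cells (log2 0.45), less than the pooled ratio. The pooled ratio also includes the Gzmk and Fcer1g clusters, whereas this value covers only the 10 clusters, with 77.1% of parous and 99.3% of virgin cells. Mcl1 was the other member with a higher CPM in the parous cells of all 10 clusters. By CPM, 6 members could be tested in all 10, and 8.33% of the 1836 genes so tested had that pattern. At a clustering resolution of 1.2 each of these genes had 1 ratio just under 0, -0.0041 for Mcl1 in the cytokine-producing-like and -0.00041 for Bcl2l11 in the P2rx7 resident-like cluster.

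**Figure D2:**
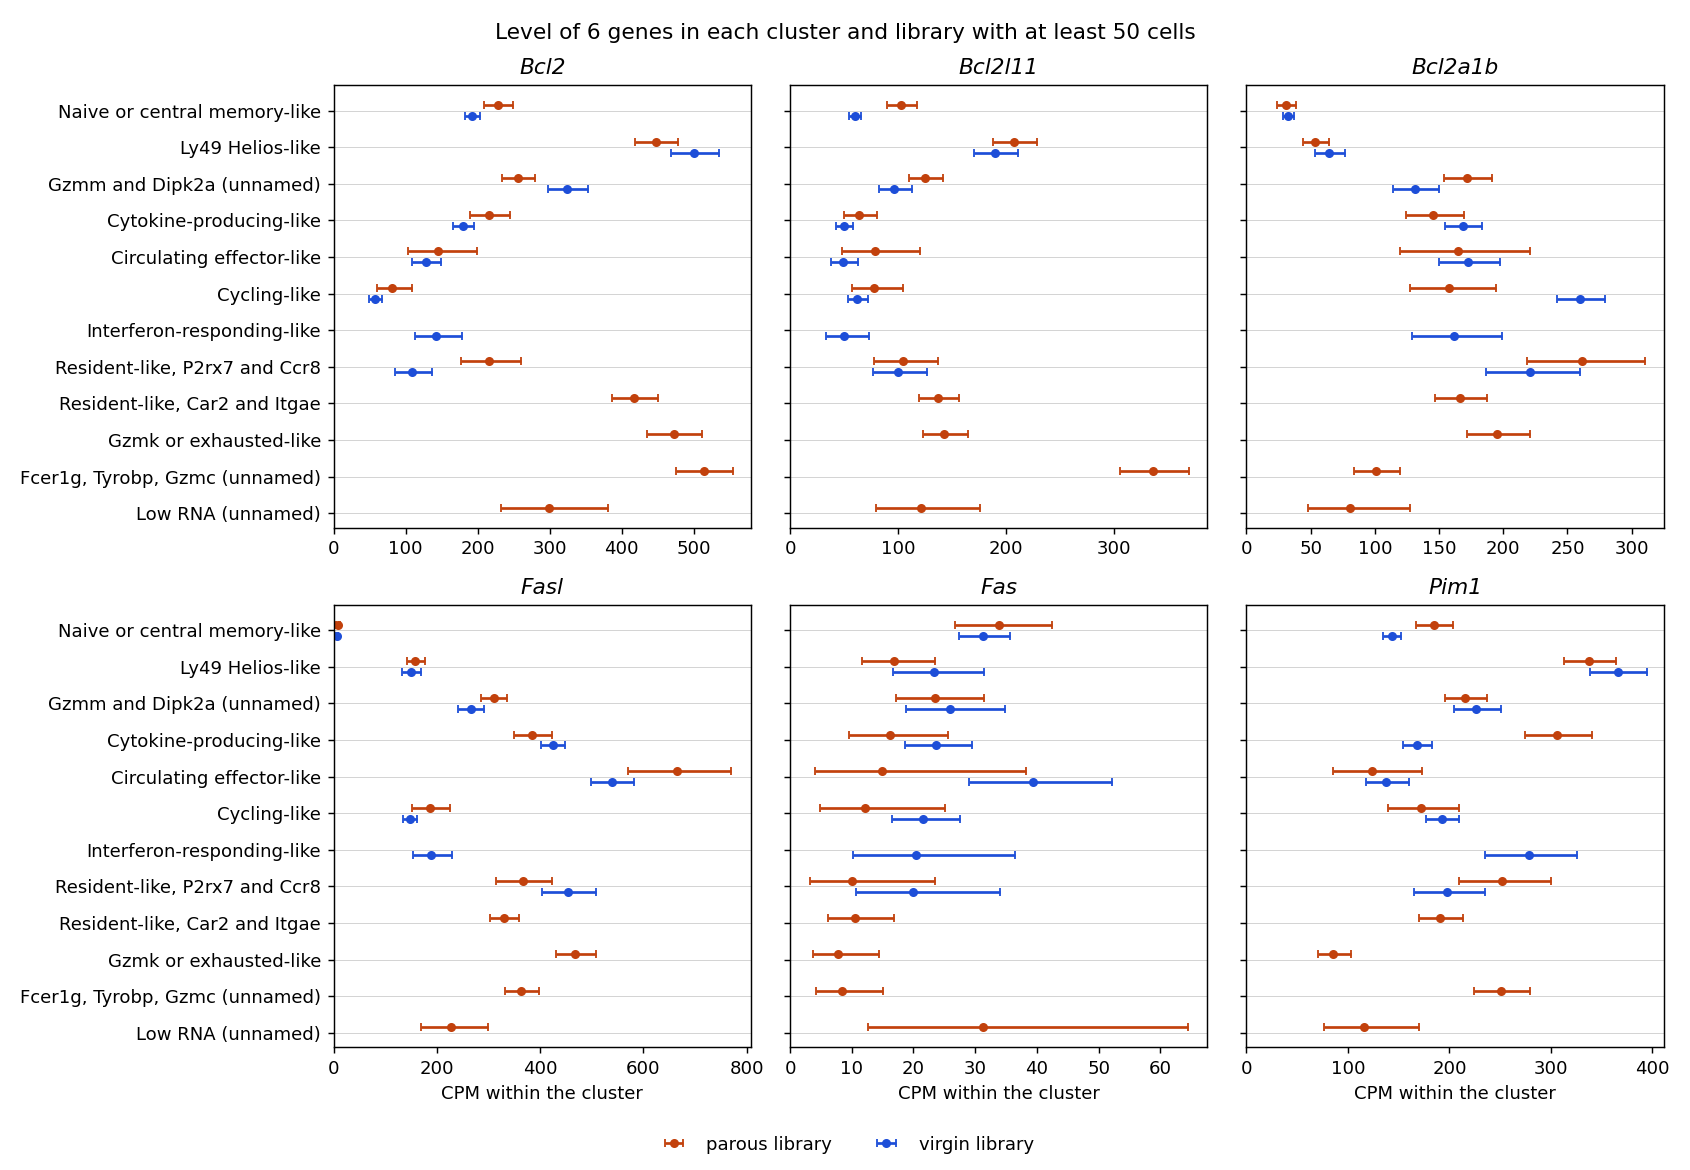
Level (CPM within the cluster, with exact 95% Poisson intervals) of Bcl2, Bcl2l11, Bcl2a1b, Fasl, Fas and Pim1 in each cluster and library with at least 50 cells; parous points lie above virgin points, and a missing point means under 50 cells. Bcl2 and Bcl2l11 peak in the Fcer1g cluster (514 and 336 CPM, parous), Fasl is near 0 in naive or central memory-like cells (8.47 CPM parous, 7.08 CPM virgin), and Fas is at 33.9 CPM (parous) and 31.3 CPM (virgin) there.

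The number of Bcl2 UMIs per Bcl2l11 UMI, which compares the guardian with the killer in the same cells, was 2.23 (interval 2.12 to 2.36) in the parous library and 2.80 (2.64 to 2.97) in the virgin library. It is a ratio of captured molecules and not of protein, and it is used here to compare groups of cells. In the naive or central memory-like cluster it was 2.22 in parous and 3.20 in virgin cells, and in the Gzmm and Dipk2a cluster 2.04 in parous and 3.37 in virgin cells. The P2rx7 resident-like cluster had the opposite order, 2.06 in parous and 1.09 in virgin cells. The cycling-like cluster was lowest in both libraries, at 1.04 in parous and 0.922 in virgin cells, and the parous Fcer1g cluster stood at 1.53 (interval 1.35 to 1.73) although it had the highest Bcl2 level among the parous clusters.

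Mcl1, a short-lived guardian that T cells need at every stage (ENSMUSG00000038612, GRCm38 chromosome 3, 95658788 to 95663176, plus strand), was the most evenly expressed of the 10 genes across states. It had 363 CPM (interval 353 to 374) in the parous library and 299 CPM (292 to 307) in the virgin library, a log2 ratio of 0.28 (0.22 to 0.33). At 1400 UMIs, 38.5% of parous and 34.1% of virgin cells had a UMI. Its level in single clusters lay between 219 CPM, in virgin cycling-like cells, and 437 CPM, in parous cells of the P2rx7 resident-like cluster, over clusters with at least 50 cells in that library. The log2 ratio was positive in all 10 clusters compared, between 0.01 and 0.41, and reached 1.5-fold in none. In naive or central memory-like cells Mcl1 was at 377 CPM in parous and 285 CPM in virgin cells (log2 0.40, interval 0.28 to 0.52). With the same mix of clusters in both libraries the log2 ratio was 0.24, close to the pooled 0.28.

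Bcl2l1 encodes Bcl-xL, a guardian induced when T cells are activated (ENSMUSG00000007659, GRCm38 chromosome 2, 152780668 to 152831728, minus strand). It had 373 UMIs and 28.1 CPM (interval 25.3 to 31.1) in the parous library, against 461 UMIs and 23.1 CPM (21.1 to 25.3) in the virgin library, so the intervals just overlapped. The log2 ratio was 0.28 (0.08 to 0.48), and 3.87% of parous and 2.61% of virgin cells had a UMI at 1400 UMIs. Naive or central memory-like cells had little, 7.58 CPM in parous and 6.40 CPM in virgin cells. The parous Gzmk or exhausted-like cluster had 59.2 CPM, and the P2rx7 resident-like cluster 52.3 CPM in parous and 52.1 CPM in virgin cells. Without the naive or central memory-like cluster the log2 ratio of Bcl2l1 over all other CD8 T cells was -0.03, and with the same mix of clusters in both libraries it was 0.10.

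The A1 guardians Bcl2a1b and Bcl2a1d are copies on chromosome 9 with near-identical coding sequences, both induced by antigen receptor signals through NF-kB. Only their coding bases were compared. The bases before the start codon, 151 in the Bcl2a1b and 195 in the Bcl2a1d transcript, were not, so how well the counts can be told apart was not tested. Their first 120 coding bases, from the start codon, are shown because a library read from the 5 prime end samples this end of the transcript. Capitals mark the bases that differ between the copies.
Bcl2a1b: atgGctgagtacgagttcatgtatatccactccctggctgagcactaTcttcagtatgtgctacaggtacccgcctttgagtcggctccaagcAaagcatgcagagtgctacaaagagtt
Bcl2a1d: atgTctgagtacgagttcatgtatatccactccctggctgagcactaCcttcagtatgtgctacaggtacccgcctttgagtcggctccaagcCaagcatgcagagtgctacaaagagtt
The first lies at chr9:89199360-89199479 on the plus strand and the second at chr9:88731600-88731719 on the minus strand, both in GRCm38 with the GENCODE M21 annotation. Counted from 1 at the A of the start codon, the copies differ by G4T, T48C and A94C in this stretch and by G312A, C381G and T490A after it, written Bcl2a1b first. In all 6 of 516 coding bases differ (98.8% identical), and the longest run without a difference is 217 bases. How reads that match both copies were counted was not given in the sources used here, so the split between them is uncertain.

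Bcl2a1b (ENSMUSG00000089929, GRCm38 chromosome 9, 89199209 to 89207827) had 1635 UMIs and 123 CPM in the parous library and 2405 UMIs and 121 CPM in the virgin library. The log2 ratio was 0.03 (interval -0.06 to 0.12). Bcl2a1d (ENSMUSG00000099974, GRCm38 chromosome 9, 88723285 to 88731914) had 290 UMIs and 21.8 CPM in the parous library and 582 UMIs and 29.2 CPM in the virgin library, a log2 ratio of -0.42 (-0.63 to -0.21). At 1400 UMIs, 2.86% of parous and 3.30% of virgin cells had a Bcl2a1d UMI, and these intervals overlapped. Summed over the 4 Bcl2a1 genes of the matrix, the log2 ratio was -0.05. Without the naive or central memory-like cluster it was -0.28 for Bcl2a1b and -0.79 for Bcl2a1d. The other copies were hardly seen, Bcl2a1a with 0 parous and 5 virgin UMIs and Bcl2a1c with 3 and 5.

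By CPM, both copies were low in naive or central memory-like cells and, in the virgin library, highest in cycling-like cells. Bcl2a1b had 30.7 CPM in parous and 32.4 CPM in virgin naive or central memory-like cells, and 262 CPM in parous and 221 CPM in virgin cells of the P2rx7 resident-like cluster. In cycling-like cells it had 158 CPM in parous and 259.9 CPM in virgin cells (log2 -0.71, interval -1.05 to -0.40), a difference past 1.5-fold that 9.76% of all genes tested in that cluster also had. Bcl2a1d had 46.9 CPM in parous and 85.6 CPM in virgin cycling-like cells (log2 -0.84, interval -1.50 to -0.29). The shares of cycling-like cells with a UMI at 1400 UMIs had overlapping intervals for both copies. They were 15.4% of parous and 20.7% of virgin cells for Bcl2a1b, and 9.23% of parous and 8.67% of virgin cells for Bcl2a1d. Cycling-like cells made up 2.17% of parous and 6.04% of virgin cells but held 9.31% of the parous and 42.4% of the virgin Bcl2a1d UMIs. In the Car2 resident-like cluster Bcl2a1d was again lower in the parous library, at 25.9 CPM against 52.4 CPM in virgin cells (log2 -1.04, interval -1.83 to -0.15).

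Bbc3, which encodes the BH3-only protein Puma, a p53 target (ENSMUSG00000002083, GRCm38 chromosome 7, 16308393 to 16318205, plus strand), was the least detected of the 10 genes. It had 163 UMIs and 12.3 CPM (interval 10.5 to 14.3) in the parous library, against 357 UMIs and 17.9 CPM (16.1 to 19.9) in the virgin library. The log2 ratio was -0.54 (-0.82 to -0.27), the opposite direction to the other BH3-only gene, Bcl2l11. At 1400 UMIs, 1.71% of parous and 2.37% of virgin cells had a UMI, with overlapping intervals. In naive or central memory-like cells it had 12.5 CPM in parous and 22.3 CPM in virgin cells (log2 -0.82, interval -1.47 to -0.26). In the Gzmm and Dipk2a cluster it had 8.18 CPM in parous and 18.1 CPM in virgin cells (log2 -1.12, interval -2.12 to -0.22). At a clustering resolution of 0.5, where this cluster merged with the cytokine-producing-like one, the Bbc3 ratio was -0.19. Only 4 of the 10 clusters had 10 Bbc3 UMIs in each library, so the gene could not be followed through the other 6. With the same mix of clusters its log2 ratio was -0.48.

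Pim1, a cytokine-induced kinase that promotes survival (ENSMUSG00000024014, GRCm38 chromosome 17, 29490753 to 29496112, plus strand), had 2942 UMIs and 221 CPM (interval 213 to 229.6) in the parous library. The virgin library had 3720 UMIs and 187 CPM (181 to 193), so the log2 ratio was 0.25 (0.18 to 0.32). At 1400 UMIs, 22.1% of parous and 20.02% of virgin cells had a UMI, and the intervals overlapped. It was highest in the Ly49 Helios-like cluster, at 338 CPM in parous and 366 CPM in virgin cells, and lowest in the parous Gzmk or exhausted-like cluster, at 85.7 CPM. The widest gap between the libraries was in the cytokine-producing-like cluster, marked by Ccl3, Ccl4 and Ifng, with 306 CPM in parous and 168 CPM in virgin cells (log2 0.86, interval 0.66 to 1.06). It was 0.31 when the members were kept among the clustered genes and 0.30 at a resolution of 0.5, both short of 1.5-fold. In that cluster 4.53% of all genes tested were at least 1.5-fold higher in parous cells, and 20 immediate early and dissociation genes summed to 14046 CPM in parous and 12743 CPM in virgin cells; their part in the Pim1 value was not tested. With the same mix of clusters Pim1 had a log2 ratio of 0.27, and without naive or central memory-like cells the pooled one was 0.11.

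Fasl, the ligand that kills Fas-bearing cells (ENSMUSG00000000817, GRCm38 chromosome 1, 161780689 to 161788495, minus strand), had 3575 UMIs and 269 CPM (interval 260.3 to 278) in the parous library. The virgin library had 3858 UMIs and 193 CPM (187 to 199.6), a ratio of 1.39-fold (log2 0.48, 0.41 to 0.54). At 1400 UMIs, 31.6% of parous and 22.4% of virgin cells had a UMI. Naive or central memory-like cells had a UMI in 1.47% of parous and 0.811% of virgin cells, with median depths of 4530 and 7399 UMIs before thinning. Whether this small share is background was not tested.

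Fasl had the widest range of the 10 genes over T cell states. It had 8.47 CPM in parous and 7.08 CPM in virgin naive or central memory-like cells, and 665 CPM in parous and 539 CPM in virgin circulating effector-like cells, which are marked by Klrg1, Cx3cr1 and S1pr5. The parous Gzmk or exhausted-like cluster had 468 CPM and the cytokine-producing-like cluster 384 CPM in parous and 424 CPM in virgin cells. Within states its ratios went both ways: it was lower in parous cells of the Car2 resident-like cluster (330.4 against 452 CPM, log2 -0.46) and of the P2rx7 resident-like cluster (366 against 454 CPM, log2 -0.31). It was higher in parous cells of the interferon-responding-like cluster (391 against 189 CPM, log2 1.05) and of the circulating effector-like cluster (log2 0.31, interval 0.06 to 0.54). At 1400 UMIs the circulating effector-like shares had the other order, 49.4% of parous and 53.8% of virgin cells, with overlapping intervals. With the same mix of clusters the level was 230.3 CPM in parous and 231 CPM in virgin cells, a log2 ratio of -0.0025. Without the naive or central memory-like cluster the pooled log2 ratio was 0.092.

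Fas, the receptor (ENSMUSG00000024778, GRCm38 chromosome 19, 34290666 to 34327772, plus strand), went the other way from its ligand. It had 244 UMIs and 18.4 CPM (interval 16.1 to 20.8) in the parous library, against 534 UMIs and 26.8 CPM (24.5 to 29.1) in the virgin library, a log2 ratio of -0.54 (-0.77 to -0.32). The ratio was -0.76 with cells thinned to 1400 UMIs, -0.61 without the 5 cells of each library richest in Fas and -0.66 without naive or central memory-like cells, all past 1.5-fold. At 1400 UMIs, 2.27% of parous cells (1.75% to 2.88%) and 4.10% of virgin cells (3.355% to 4.95%) had a UMI. Its level was 33.9 CPM in parous and 31.3 CPM in virgin naive or central memory-like cells, and these cells carried 31.1% of the parous and 43.1% of the virgin Fas UMIs. Virgin circulating effector-like cells had 39.3 CPM, and the parous ones 14.9 CPM from 4 UMIs. It was at 7.79 CPM in the parous Gzmk or exhausted-like cluster, 8.45 CPM in the Fcer1g cluster and 10.5 CPM in the Car2 resident-like cluster. Fasl UMIs per Fas UMI were 14.7 for all parous and 7.22 for all virgin CD8 T cells, and 0.25 in parous and 0.226 in virgin naive or central memory-like cells. No cluster with 10 Fas UMIs in each library had an interval of the ratio that left out 0, and with the same mix of clusters the log2 ratio was -0.17.

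**Figure D3:**
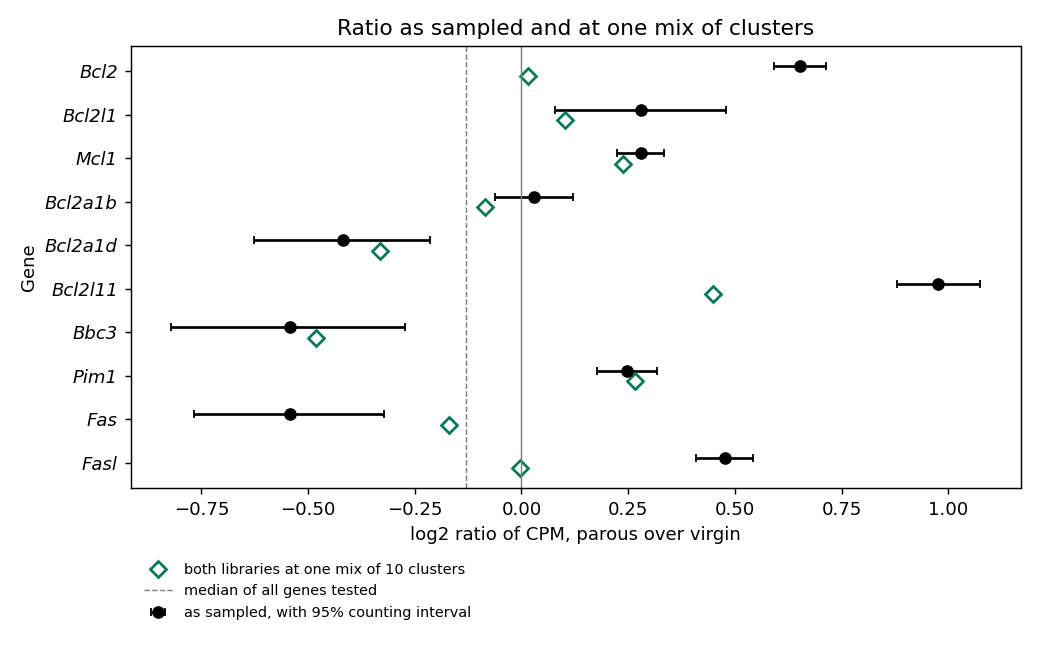
Log2 ratio of CPM (parous over virgin) of each of the 10 genes in all CD8 T cells as sampled and after both libraries were given the same mix of 10 clusters (diamonds); bars are 95% counting intervals of the value as sampled and the dashed line is the median of all genes tested. Bcl2 moves to 0.01 and Fasl to -0.0025, Bcl2l11 to 0.45, while Mcl1 (0.24), Pim1 (0.27) and Bbc3 (-0.48) stay near their values as sampled.

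The 10 genes differed in how much of their pooled ratio depended on the mix of states. For Bcl2 and Fasl the log2 ratio with equal mixes was 0.01 and -0.0025, against pooled values of 0.65 and 0.48. For Mcl1, Pim1, Bbc3 and Bcl2a1d the ratio with equal mixes (0.24, 0.27, -0.48 and -0.33) lay close to the pooled one. The Bcl2a1d ratio was nonetheless unsteady, between -0.79 and -0.028 over the other settings run. Bcl2l11, Bcl2l1 and Fas lay between, at 0.45 against 0.98, 0.10 against 0.28 and -0.17 against -0.54, and Bcl2a1b was near 0 both ways. This standardisation leaves out the Gzmk and Fcer1g clusters, which had too few virgin cells to enter, and each value rests on 1 library per group.

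In single clusters few members passed 1.5-fold, counted over those with 10 or more UMIs in both libraries. Higher in parous cells were 1 of 9 members in the naive or central memory-like cluster (Bcl2l11; 4.28% of all genes tested), 1 of 10 in the cytokine-producing-like cluster (Pim1; 4.53%) and 1 of 8 in the circulating effector-like cluster (Bcl2l11; 12.5%). The P2rx7 resident-like cluster had 2 of 8 higher (Bcl2 and Bcl2a1d; 8.86%), the low RNA cluster 1 of 6 (Bcl2l11; 10.7%) and the interferon-responding-like cluster 3 of 6 (Bcl2, Bcl2l11 and Fasl; 13.5%). Lower were 1 member in the naive or central memory-like cluster (Bbc3; 11.3%), 1 in the Gzmm and Dipk2a cluster (Bbc3; 12.7%), 2 in the Ly49 Helios-like cluster (Bcl2l1 and Bcl2a1d; 15%), 1 in the Car2 resident-like cluster (Bcl2a1d; 22.1%) and 2 in cycling-like cells (Bcl2a1b and Bcl2a1d; 9.76%). The counting interval of the log2 ratio included 0 for Bcl2l11 in the circulating effector-like (-0.12 to 1.41) and low RNA (-0.18 to 2.04) clusters. It also did for Bcl2a1d in the P2rx7 resident-like (-0.15 to 1.46) and Ly49 Helios-like (-2.06 to 0.20) clusters. Each count is of 1 to 3 members, too few to set against the share of all genes, and that of the interferon-responding-like cluster rests on 42 parous and 66 virgin cells.

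**Figure D4:**
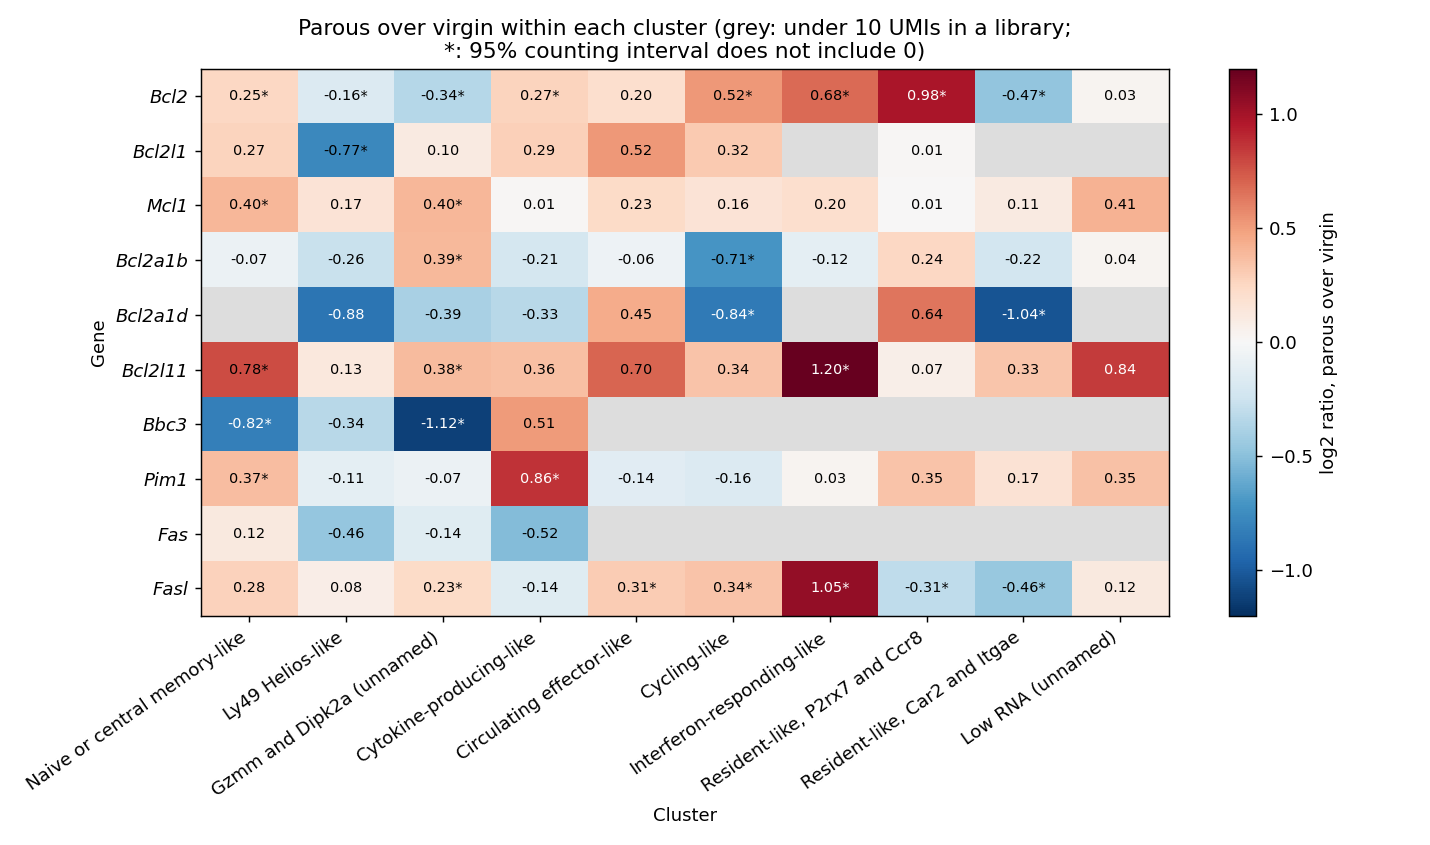
Log2 ratio of CPM (parous over virgin) of the 10 genes in each of the 10 clusters with at least 25 cells in each library; grey cells mark genes with under 10 UMIs in a library, and an asterisk marks a 95% counting interval that leaves out 0. Mcl1 and Bcl2l11 are above 0 in all 10 columns, Bcl2 ranges between -0.47 and 0.98, and Bcl2a1b between -0.71 and 0.39.

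Shares of cells read without matching depth would have given another order for 4 genes. Before thinning, Bcl2l1 UMIs occurred in 10.6% of parous and 13.9% of virgin cells, Mcl1 in 72.0% and 81.3%, Bcl2a1b in 30.5% and 36.9%, and Pim1 in 45.3% and 54.5%. After thinning to 1400 UMIs all 4 were seen in a larger share of parous cells, which was also the order of their CPM. Bcl2 and Bcl2l11 were seen in a larger share of parous cells both ways, and Fas and Bbc3 in a smaller one.

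The other genes of the survival and apoptosis machinery were taken as lists of 74 genes, without the 10 members, chosen with earlier results of these data known. Of 69 that passed the floor of 10 UMIs per library, 6 were higher and 5 lower in the parous library by 1.5-fold or more (6.54% and 12.3% of all genes tested), and the median log2 ratio was -0.14 against -0.13 for all genes tested. Scaling by median of ratios, which moved every log2 ratio up by 0.13, gave 9 higher and 3 lower. Parous against virgin levels among the 6 higher genes were 72.5 against 24.3 CPM for Cdkn1a, the p53-induced cell cycle inhibitor p21 (log2 1.57), and 87.8 against 46.2 CPM for the kinase gene Pim3 (log2 0.93). The STAT5-induced signalling inhibitor gene Cish had 111 against 59.97 CPM (log2 0.88), the TNF receptor gene Tnfrsf1b 131 against 82.9 CPM (log2 0.66) and the p53 target Sesn2 7.83 against 4.76 CPM (log2 0.72). With equal mixes of clusters Pim3 (0.50), Cish (0.20) and Tnfrsf1b (0.16) were under 1.5-fold, while Cdkn1a and Sesn2 (0.95) were not. The BH3-only gene Bmf, with 14 parous and 12 virgin UMIs, was the sixth.

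The 5 lower genes were Birc5, Myc, Bak1, Akt1 and Daxx. Birc5, a mitotic inhibitor of apoptosis, had 19.9 CPM in parous and 57.5 CPM in virgin cells (log2 -1.53), and a log2 ratio of 0.13 with equal mixes of clusters. Myc, a transcription factor gene of growth, had 39.2 CPM in parous and 103 CPM in virgin cells (log2 -1.39) and the same ratio with equal mixes. Bak1, one of the effectors that open the mitochondrial membrane, had 22.95 CPM in parous and 38.7 CPM in virgin cells (log2 -0.75, and -0.60 with equal mixes). Its partner Bax had 158 and 159 CPM (log2 -0.01). Akt1, a survival kinase gene, had a log2 ratio of -0.68 (-0.72 with equal mixes) and Daxx, a Fas-binding adaptor gene, of -0.67 (-0.41, under 1.5-fold).

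Among upstream receptors, Il7r, the IL-7 receptor alpha chain, had 226 CPM in parous and 309 CPM in virgin cells (log2 -0.45), and Il2rb, the beta chain shared by the IL-2 and IL-15 receptors, 464 and 327 CPM (log2 0.50). With equal mixes of clusters these were -0.12 and -0.04. Cflar, an inhibitor of Fas signalling, had a log2 ratio of -0.27 (-0.24 with equal mixes) and Pim2 of -0.29 (-0.015 with equal mixes). Cdkn1a kept a log2 ratio of 1.60 with equal mixes, whereas Bbc3, another p53 target, was lower in the parous library on both counts. Over the 7 other p53 targets 2 were at least 1.5-fold higher (6.54% of all genes tested), none was lower (12.3%), and the median was -0.16.

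Across 19 library and cluster combinations with at least 50 cells, some of the members ran together. Bcl2 and Bcl2l11 ran together (Pearson r = 0.76 on log2(CPM + 10)), while Bcl2a1b ran with Bcl2a1d (0.91), Bcl2l1 (0.84) and Fasl (0.79). Bcl2a1b and Bbc3 ran in opposite order (-0.64). Mcl1, Pim1, Fas and Bbc3 reached at most 0.41 with any other member. Of 5807 genes searched, the closest to Fasl were Ccl5 (0.97) and Bhlhe40 (0.96), and the closest to Bcl2l1 were Cd82 (0.94) and Pstpip1 (0.89). Gng2 (0.94) and Cd82 (0.93) were closest to Bcl2a1b, and Stx11 (0.92) and Cpsf2 (0.91) to Bcl2a1d. Grcc10 (0.84) and Jmy (0.83) were closest to Bcl2, Ifrd1 (0.83) and Cerk (0.82) to Bcl2l11, and Ypel5 (0.85) and Stk17b (0.79) to Mcl1. Pim1 lay nearest to Nfkbia (0.78) and Birc3 (0.73), Bbc3 to Mettl1 (0.85) and Tnfsf8 (0.78), and Fas to Ap1ar (0.78) and Pced1b (0.77). These points share their libraries, depth and clusters and are not independent, so the values are a description.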

How the data were processed

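The authors deposited raw counts of UMIs for each gene in each barcode, made with Cell Ranger 7.0.0 on mm10 per the submitters' processing notes, where R 4.4.2 and Seurat are listed too with no stated role. The counting of intronic reads, the strand rule and the settings of cell calling are not given in the sources used here. Bcl2, Bcl2a1d and Pim1 overlap genes on the other strand that are also in the matrix (D630008O14Rik, Gm10634 and Gm26885).

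A cell needed 500 genes, 1000 UMIs and a mitochondrial share below 10%. Scrublet marked 2 parous and 12 virgin cells, under 0.5% of each library, so it was taken not to have worked and its calls were kept. Virgin UMIs were thinned to 58.7% for clustering (scanpy 1.11.5, 2000 variable genes, 30 principal components, 15 neighbours, Leiden resolution 0.8), without the 10 members and without receptor, immunoglobulin, ribosomal and mitochondrial genes. A cluster took a name from at least 3 markers that were 2-fold higher and seen in 10% of its cells. No name was given where another marker list had more of the cluster's 10 leading genes. The same held where a low RNA cluster had none of its own list among them. The Fcer1g cluster had 10 markers of the tissue-resident memory-like list. It stayed unnamed because 0 of its leading genes were on that list and 3 were on another. One cluster of other cells (26 parous and 9 virgin) was left out.

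CPM came from UMIs summed over cells, log2 ratios had 0.5 added to each count, and intervals are at 95%. The software was pandas 2.3.3, scipy 1.17.1 and numpy 2.4.6 under Python 3.11.15, tested on simulated counts. All 10 members were named. Of the other survival genes, those at least 1.5-fold apart with 30 UMIs in 1 library (up to 4 per list) and a fixed few were named, with Bmf and Bcl2a1c added after their values were seen. For likeness, the 2 genes of highest correlation with at least 20 CPM were named. Positions and coding sequences came from GENCODE M21. The members, lists and markers were chosen with earlier results of these data known.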

Additional observations from a re-analysis of the deposited data

Results flagged for a closer look

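Bcl2 differed in direction between the resident-like clusters. Its log2 ratio (parous over virgin) was 0.98 in the cluster marked by P2rx7 and Ccr8 (140 parous and 102 virgin cells) and -0.47 in the cluster marked by Car2 and Itgae (331 parous and 49 virgin cells). The difference between these ratios was not tested.

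Bcl2a1b had a log2 ratio of 0.39 in the cluster led by Gzmm and Dipk2a and of -0.71 in cycling-like cells, and this difference was not tested. In the Gzmm and Dipk2a cluster the ratio was 0.050 at a resolution of 0.5. A single virgin cell held 37 Bcl2a1b UMIs, against at most 14 in a parous cell.

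Fasl had a log2 ratio of 1.05 in interferon-responding-like cells (42 parous and 66 virgin cells) and of -0.46 in the Car2 and Itgae cluster. This difference was not tested either. The 6 NK cell markers summed to 206 CPM in parous and 74.1 CPM in virgin interferon-responding-like cells, and their part in the Fasl value was not tested.

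The 1908 barcodes that the filter removed from the parous library, with a median of 600 UMIs, carried all 10 members. Bcl2 was at 280 CPM, Mcl1 at 364 CPM, Bcl2l1 at 26.3 CPM, Bcl2a1b at 107 CPM and Bcl2a1d at 19.7 CPM. Bcl2l11 was at 140 CPM and Bbc3 at 8.21 CPM. Pim1 was at 146 CPM, Fas at 19.7 CPM and Fasl at 291 CPM. Of these barcodes 48.0% had a Cd3e UMI. The 15 virgin barcodes left out held 12383 UMIs in all, too few to compare.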

How the results depend on the processing

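Over 112 pooled values of the 10 genes under other settings, 106 had the sign of the reported log2 ratio (parous over virgin) and 6 did not, and 30 moved by more than the counting interval. Median-of-ratios scaling gave 0.78 for Bcl2, 0.41 for Mcl1, 0.16 for Bcl2a1b, 1.11 for Bcl2l11, 0.38 for Pim1 and 0.61 for Fasl. Weighting cells equally gave 0.50 for Bcl2l1, 0.18 for Bcl2a1b, -0.028 for Bcl2a1d and 0.36 for Fasl. Thinning to 1400 UMIs gave 0.56 for Bcl2l1, 0.33 for Bcl2a1b and -0.16 for Bcl2a1d. Without clusters mostly of 1 library the values were 0.48 for Bcl2, 0.76 for Bcl2l11, 0.32 for Pim1 and 0.28 for Fasl. Equal mixes of clusters gave 0.014 for Bcl2, -0.087 for Bcl2a1b, 0.45 for Bcl2l11, -0.17 for Fas and -0.0025 for Fasl. Summing the Bcl2a1 genes gave -0.050 in place of the Bcl2a1d value. The next settings were chosen after seeing the data. Without the Fcer1g cluster Bcl2 was at 0.57 and Bcl2l11 at 0.77, and without naive or central memory-like cells Bcl2l1 was at -0.027, Bcl2a1b at -0.28, Bcl2a1d at -0.79, Pim1 at 0.11 and Fasl at 0.092. The causes were not tested, beyond what each setting leaves out. At 2-fold, 0 members were higher in place of 2, and median-of-ratios scaling left 3 other survival genes lower in place of 5. Of 40 shares 4 and of 328 values within clusters 30 had the other sign, and 22 within clusters moved, mostly where the Gzmm and cytokine-producing-like clusters merged. Leaving out Scrublet calls, a stricter cell filter and leaving out the 5 richest cells were among the settings run. No paired analysis was possible because each group is 1 library and the replicate numbers only name the samples. The 10 UMI floor left Bbc3 and Fas in 4 clusters each.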

Other observations

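At 1400 UMIs per cell, 195 of 2868 parous cells and 59 of 2488 virgin cells had a UMI of both Bcl2 and Bcl2l11. Independence of the genes would have given 151 and 45.4 cells. Of cells with a Bcl2l11 UMI, 43.3% of parous and 26.8% of virgin cells also had a Bcl2 UMI. Cells with both Fas and Fasl UMIs were few, 17 parous and 19 virgin, where independence would have given 20.6 and 22.9. Bcl2a1b and Bcl2a1d were seen together in 28 parous and 22 virgin cells, against 12.4 and 9.85 under independence. These counts pool T cell states that differ in each gene and are given as values.

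The cluster of other cells, which held myeloid and mammary epithelial genes, also carried the members. Its 26 parous cells had 176 CPM of Bcl2 and 99.8 CPM of Fasl, with a Cd3e UMI in 69.2% of cells, and its 9 virgin cells had 47.7 CPM of Bcl2 and 33.4 CPM of Fasl.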
